A study of Mus musculus with 46 samples.

Results

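The immediate early genes are a small set of genes that cells transcribe within minutes of a stimulus, without first having to make new protein. The 10 described here are Fos, Fosb, Jun, Junb and Jund, Egr1, Ier2, Atf3, and the orphan nuclear receptors Nr4a1 and Nr4a3. They were taken by gene name from a choice made with earlier results of these data known, and all 10 have a row among the 33331 gene rows of the deposited tables. They were followed in 46 bulk RNA libraries of whole mouse gonads at E12.5, the stage when the gonad is turning into a testis or an ovary.

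Growth factors, calcium, cAMP and mechanical stress reach these genes through kinases that act on factors already bound at their promoters, such as serum response factor and CREB. Fos and Jun family proteins pair to form the transcription factor AP-1, Egr1 is a zinc finger factor and Atf3 a stress-induced partner of the same basic leucine zipper class. Their transcripts are short-lived, and handling a tissue after removal is a well-known way to induce them.

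The mice carry induced mutations in Enh13, an enhancer of Sox9, the gene that directs supporting cells toward the Sertoli fate. The homozygous groups were XX 1bp-ins-hom, XX 3bp-del-hom and XX 3bp-12bp-del-hom (5 libraries each), XY 1bp-ins-hom and XY 3bp-del-hom (5 each) and XY 3bp-12bp-del-hom (3). The heterozygous groups were XX and XY 1bp-ins-het and XX and XY 3bp-del-het (3 each), and the wild-type groups were XX WT and XY WT (3 each). What the 3bp-12bp name stands for beyond its wording is not stated in the labels, and strain is not given there. Each library came from a gonad pair, and nothing in the labels says which pairs shared a litter, so p-values measure the spread between these samples.

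The libraries held between 29909111 and 46150400 estimated counts. Of the tissue check lists, the 12 Sertoli markers summed to 813 to 2010 CPM (counts scaled to library size) in XY WT and 173 to 193 CPM in XX WT. The 11 pregranulosa markers summed to 165 to 396 CPM in XY WT and 895 to 1210 CPM in XX WT, so the labelled sexes carried their own markers. Of the libraries with markers of neighbouring tissue, 7 are singled out here. XY 3bp-del-hom replicate 1 carried yolk sac, liver and epithelial transcripts, and some stroma markers were also high, all of which are described with Fos. XY WT replicate 3 had a summed level of 291 CPM for 7 mesonephros markers, against 87.2 and 109 CPM in the other XY WT libraries. XX 3bp-del-hom replicate 4 had the kidney cadherin Cdh16 at 41.3 CPM. Its sum of the 7 markers did not stand out, at most 268 CPM in its group against 260 to 296 CPM in XX WT. XX WT replicate 1 and XY 3bp-del-het replicate 1 had 7 adrenal and sympathetic markers at a summed 181 and 67.9 CPM. That sum also reached 48.6 CPM in a library of XX 1bp-ins-het, which is not among the 7, so the 7 are not a full list. XX 3bp-12bp-del-hom replicate 1 and XX 1bp-ins-hom replicate 5 carried yolk sac and fetal liver transcripts, whose sums are also given with Fos. Counts of called members are given with and without the first 5, called the libraries that stood apart, and without all 7, both choices made after seeing the data.

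Nr4a3 and Nr4a1 moved with sex and genotype, and Fos and Fosb were high in 1 library, and promoter stretches of these 4 members are shown. Jun and Ier2 also moved with sex and genotype. The Jun window held 0 copies of the motif TGACG and is not printed, and Ier2 had no window. No result rests on the 4 stretches. They come from RefSeq on GRCm38.p6, whose table matched 8 of the 10 members, and run 5′ to 3′ along the gene from 250 bases before the RefSeq start, ending at that start or at the first annotated exon. Capitals mark the short cAMP response motif TGACG, read on both strands so that CGTCA is the same motif reversed. The Nr4a3 stretch lies at chr4:48045055-48045152, plus strand, and the Nr4a1 stretch at chr15:101266596-101266845, plus strand. The Fos stretch lies at chr12:85473640-85473889, plus strand, and the Fosb stretch at chr7:19310052-19310295, minus strand.
Nr4a3: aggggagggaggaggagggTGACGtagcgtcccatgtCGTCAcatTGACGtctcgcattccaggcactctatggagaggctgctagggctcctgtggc
Nr4a1: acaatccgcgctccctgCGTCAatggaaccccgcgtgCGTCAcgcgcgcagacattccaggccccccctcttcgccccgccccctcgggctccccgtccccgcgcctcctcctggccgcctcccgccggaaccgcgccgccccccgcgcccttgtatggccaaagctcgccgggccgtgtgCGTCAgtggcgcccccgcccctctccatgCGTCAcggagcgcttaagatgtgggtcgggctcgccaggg
Fos: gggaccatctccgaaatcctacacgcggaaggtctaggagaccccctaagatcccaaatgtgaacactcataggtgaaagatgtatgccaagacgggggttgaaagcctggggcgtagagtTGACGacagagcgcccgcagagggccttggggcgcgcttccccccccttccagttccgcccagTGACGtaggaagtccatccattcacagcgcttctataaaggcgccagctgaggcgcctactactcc
Fosb: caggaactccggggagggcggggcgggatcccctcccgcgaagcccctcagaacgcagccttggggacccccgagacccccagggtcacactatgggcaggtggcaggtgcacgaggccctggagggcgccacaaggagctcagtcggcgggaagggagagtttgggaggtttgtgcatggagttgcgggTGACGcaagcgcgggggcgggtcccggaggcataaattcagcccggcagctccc

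In the full 250 bases before the RefSeq start, Nr4a3 and Nr4a1 each held 4 copies of TGACG, Fos 2, and Fosb, Junb and Atf3 1 each. Jun and Jund held 0. At least 1 copy was found in 17.8% of 32851 mouse promoter windows of that length, and at least 4 copies in 0.137%. One of the 4 Nr4a3 copies falls inside its annotated first exon and is not printed. The full palindrome TGACGTCA, which contains TGACG on both strands, was in 1.55% of windows, the AP-1 site TGANTCA in 6.75% and the CArG box, which serum response factor binds, in 1.47%, and these 3 were in 0 of the 8 member windows. TATAAA was in the Fos window and in 12.4% of all windows. The RefSeq start used was not always the annotated gene start. The Jund window ends at chr8:70697738, upstream of the annotated gene start at chr8:70698949. The Nr4a1 and Atf3 windows lie inside their annotated genes. A match describes the letters of its window only.

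Compared per length, in TPM, the members spanned a wide range of levels. Median TPM over the 46 libraries was 224 for Jund, 54.1 for Ier2, 39.9 for Jun, 17.8 for Nr4a1, 5.03 for Junb, 4.33 for Egr1, 1.75 for Atf3, 1.47 for Nr4a3, 0.735 for Fos and 0.09 for Fosb. Jund lay above Ier2 in 46 of 46 libraries and Nr4a1 above Junb in 46 of 46. The order of close neighbours was less firm: Junb was above Egr1 in 34 of 46, Atf3 above Nr4a3 in 30 and Nr4a3 above Fos in 33. Fos, the best known of the group, was thus among its least abundant transcripts in these gonads.

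Nr4a3 (ENSMUSG00000028341.9, chr4:48045153-48086447, plus strand, mm10), an orphan nuclear receptor gene of 8 exons, differed most between groups of the 10. Its level in the 5 libraries was 4.9, 4.45, 7.89, 3.68 and 4.01 CPM in XX 1bp-ins-hom, and 4.88, 5.34, 5.4, 4.01 and 3.82 CPM in XX 3bp-del-hom. In XX 3bp-12bp-del-hom it was 5.18, 7.23, 4.74, 8.93 and 8.04 CPM, against 0.487, 0.373 and 0.772 CPM in XX WT. Every homozygous XX library lay above every XX WT library. The log2 fold change over XX WT was 3.19 ± 0.35 (SE) in XX 1bp-ins-hom, 3.08 ± 0.26 in XX 3bp-del-hom and 3.65 ± 0.32 in XX 3bp-12bp-del-hom, with adjusted p of 0.000833, 3.07e-05 and 0.000117 by edgeR's quasi-likelihood test.

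Heterozygous XX gonads did not show that level. Nr4a3 was 0.374, 0.585 and 0.112 CPM in XX 1bp-ins-het and 0.337, 0.477 and 0.226 CPM in XX 3bp-del-het, overlapping XX WT. The homozygous over heterozygous log2 fold change was 3.78 ± 0.48 for 1bp-ins (edgeR adjusted p = 0.0029) and 3.76 ± 0.27 for 3bp-del (edgeR adjusted p = 1.12e-05). In bulk tissue, more cells that express a gene and more RNA per cell cannot be told apart.

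XY gonads carried Nr4a3 in every genotype. The XY WT libraries had 3.62, 3.31 and 1.86 CPM, above all 3 XX WT libraries, and the log2 fold change of XY WT over XX WT was 2.41 ± 0.41 (edgeR adjusted p = 0.0126). That call was lost without replicate 1 or 2 of either group, with edgeR adjusted p up to 0.0665. The 5 XY mutant groups averaged higher still, between 5.46 ± 1.37 CPM in XY 3bp-del-het (SD, n = 3) and 8.68 ± 2.06 CPM in XY 3bp-12bp-del-hom (SD, n = 3), against 2.93 ± 0.939 CPM in XY WT (SD, n = 3). None of the 5 groups overlapped XY WT, where 7.76%, 8.09%, 13.2%, 13.8% and 12.1% of all genes did not in XY 1bp-ins-hom, XY 3bp-del-hom, XY 3bp-12bp-del-hom, XY 1bp-ins-het and XY 3bp-del-het. None of the 5 differences was called, with edgeR adjusted p from 0.341 in XY 1bp-ins-hom to 0.836 in XY 3bp-del-het. The XY WT value of 1.86 CPM is that of replicate 3, the library with mesonephros markers.

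The effect of homozygosity on Nr4a3 was larger in XX than in XY gonads for 2 of the 3 genotypes. The interaction, coded as the XX effect minus the XY effect, was 2.28 ± 0.42 on the log2 scale for 1bp-ins-hom (edgeR adjusted p = 0.0137) and 2.03 ± 0.34 for 3bp-del-hom (edgeR adjusted p = 0.0037). For 3bp-12bp-del-hom it was 2.09 ± 0.45 (edgeR adjusted p = 0.0598). It was called without XX 3bp-12bp-del-hom replicate 3 (edgeR adjusted p = 0.0286) or XY WT replicate 3 (0.00388), and without the 5 libraries that stood apart it was 2.26 ± 0.46 (edgeR adjusted p = 0.00991). The 1bp-ins-hom term missed the threshold when XX WT replicate 2 (edgeR adjusted p = 0.0662) or XY WT replicate 1 (0.051) was left out.

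**Figure D1:**
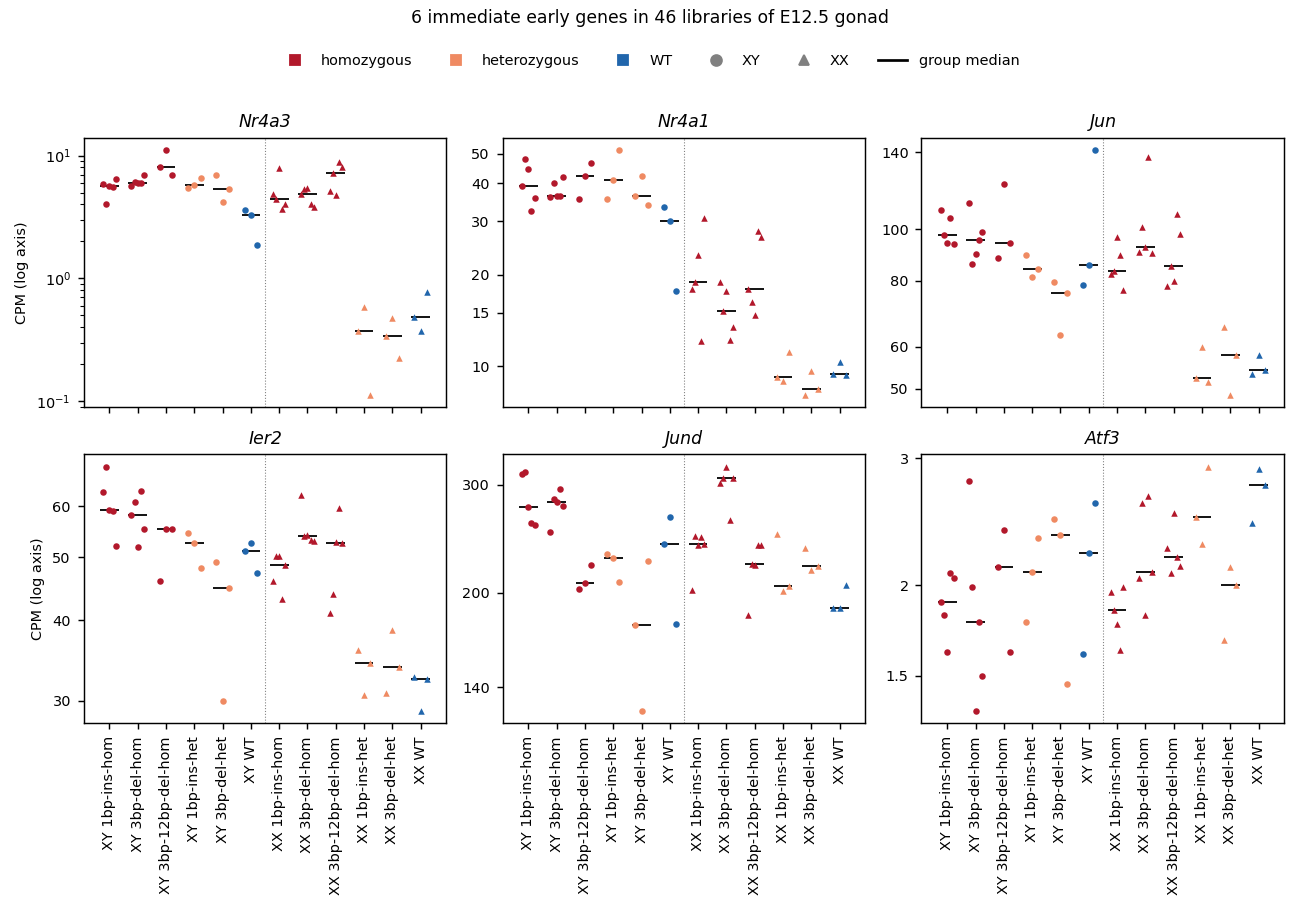
CPM on log axes of Nr4a3, Nr4a1, Jun, Ier2, Jund and Atf3 by group, with 1 point per library (circles XY, triangles XX) and bars at group medians. Nr4a3 lies between 3.68 and 8.93 CPM in the 15 homozygous XX libraries and at or below 0.772 CPM in the heterozygous and WT XX libraries.

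Nr4a1 (ENSMUSG00000023034.7, chr15:101254269-101274795, plus strand), the close relative of Nr4a3, rose in XX homozygotes, and every XY library lay above every XX library of the same genotype. It was 17.9, 18.9, 23.2, 12.1 and 30.8 CPM in XX 1bp-ins-hom and 18.9, 15.2, 17.7, 12.2 and 13.4 CPM in XX 3bp-del-hom. In XX 3bp-12bp-del-hom it was 17.9, 16.2, 14.7, 27.8 and 26.7 CPM, against 9.39, 10.3 and 9.36 CPM in XX WT. No XX homozygote overlapped XX WT, and the log2 fold changes were 1.09 ± 0.27, 0.65 ± 0.14 and 1.09 ± 0.23 in that order of genotypes (edgeR adjusted p = 0.0161, 0.00328 and 0.00975). In XY homozygotes the level ran from 32.5 to 48.0 CPM, against 33.4, 30.1 and 17.7 CPM in XY WT, and no XY difference from WT was called.

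XY WT exceeded XX WT in Nr4a1 by a log2 fold change of 1.46 ± 0.24 (edgeR adjusted p = 0.0108), a call lost without XX WT replicate 2 or 3 (edgeR adjusted p up to 0.0591). The interaction was not called for any of the 3 genotypes, at 0.52 ± 0.35, 0.18 ± 0.24 and 0.48 ± 0.35 on the log2 scale. The call in XX 1bp-ins-hom was lost when any 1 of the 3 XX WT libraries was left out, with edgeR adjusted p between 0.0533 and 0.0635 and a log2 fold change still between 1.06 and 1.14. Within groups, Nr4a1 ran against the summed mesonephros markers over the 46 libraries (Pearson r = -0.70, permutation p = 0.00041, adjusted over 10 members 0.0041; Spearman rho = -0.49, permutation p = 0.00768, adjusted 0.0768). Without the 2 libraries farthest from the median of the markers, r was -0.59. This relation was looked for after the values had been seen. A single gene can carry the marker sum. In XY 3bp-del-hom, where the sum was 73.3 to 86.5 CPM, Emx2 alone was 57.9 to 78.7 CPM. Each other gene of the list was at or below 8.87 CPM in that group. The relation of Nr4a1 to the markers was not tested without Emx2.

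Several lists of cell type markers also moved between groups, and their part in the member differences was not tested. The 7 mesonephros genes summed to 84.6 to 200 CPM in XX 1bp-ins-hom, 183 to 268 CPM in XX 3bp-del-hom and 141 to 225 CPM in XX 3bp-12bp-del-hom, against 260 to 296 CPM in XX WT. In XY 3bp-del-hom the sum was 73.3 to 86.5 CPM, and no gene of the list was at 0 throughout a group. Most of the sum in XY 3bp-del-hom was Emx2, at 57.9 to 78.7 CPM. Outside XY 3bp-del-hom replicate 1 Emx2 reached 276 CPM, and no sum in any group was above 314 CPM. In the library with that Emx2 level, Emx2 thus made up most of the sum too. The part of Emx2 in the lower sums of the XX homozygotes was not tested. Of the genes tested, 2 of 6, 2 of 7 and 4 of 7 were called lower in the 3 XX homozygotes over WT and 0 higher. The Sertoli list had 11 of 12 genes called higher in each XX homozygote over XX WT, and a summed level of 560 to 2290 CPM over the 3 homozygous groups against 173 to 193 CPM in XX WT. Of 11 pregranulosa genes, markers of the ovarian supporting cell, 9, 8 and 11 were called lower in XX 1bp-ins-hom, XX 3bp-del-hom and XX 3bp-12bp-del-hom over XX WT and 0 higher. Their sum was 211 to 531, 520 to 631 and 323 to 580 CPM in those 3 groups, against 895 to 1210 CPM in XX WT. Of 11 endothelial genes 5, 6 and 0 were called lower and 0, 2 and 0 higher, and of 10 macrophage genes 2, 4 and 6 lower and 0 higher.

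Jun (ENSMUSG00000052684.4, chr4:95049034-95052222, minus strand), a core AP-1 subunit with 1 exon, followed the same split at a smaller size. It was 82.4, 83.6, 96.7, 89.5 and 76.8 CPM in XX 1bp-ins-hom and 90.8, 101, 92.7, 137 and 90.2 CPM in XX 3bp-del-hom. In XX 3bp-12bp-del-hom it was 78.3, 85.1, 79.8, 107 and 98.0 CPM, against 53.3, 57.9 and 54.1 CPM in XX WT. All 15 homozygous XX libraries lay above all XX WT libraries, and above all 6 heterozygous XX libraries, whose highest was 65.3 CPM. The log2 fold changes over XX WT were 0.63 ± 0.08, 0.87 ± 0.14 and 0.70 ± 0.10 (edgeR adjusted p = 0.00109, 0.00117 and 0.00165).

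The highest Jun values belonged to libraries that stood apart. XY WT had 78.4 and 85.6 CPM in replicates 1 and 2 and 141 CPM in replicate 3, the library with a high mesonephros sum. XX 3bp-del-hom had 137 CPM in replicate 4, the library singled out by Cdh16. The mesonephros sum was at most 268 CPM in that group, against 260 to 296 CPM in XX WT. The Jun difference of XY WT over XX WT was 0.85 ± 0.21 on the log2 scale (edgeR adjusted p = 0.0471), and 0.55 ± 0.09 without the libraries that stood apart (edgeR adjusted p = 0.000381). The call was lost without any 1 XX WT library or XY WT replicate 2 (edgeR adjusted p up to 0.162). In XX 3bp-del-hom over XX WT it was 0.76 ± 0.07 without the libraries that stood apart (edgeR adjusted p = 6.11e-06). The 3bp-del-hom interaction for Jun was 0.96 ± 0.25 (edgeR adjusted p = 0.0461), and 0.58 ± 0.10 without them (edgeR adjusted p = 0.00115). That call was lost on leaving out any 1 library of XX 3bp-del-hom or XX WT, any of XY 3bp-del-hom replicates 2 to 5, or XY WT replicate 2, with edgeR adjusted p up to 0.111.

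Ier2 (ENSMUSG00000053560.4, chr8:84661331-84662852, minus strand), named for its immediate early response, rose in all 3 XX homozygotes. It was 46, 50.2, 50.2, 43.1 and 48.6 CPM in XX 1bp-ins-hom and 62.4, 54.0, 54.2, 53.2 and 53.0 CPM in XX 3bp-del-hom. In XX 3bp-12bp-del-hom it was 41.0, 43.9, 52.9, 59.6 and 52.7 CPM, against 32.6, 28.9 and 32.4 CPM in XX WT. The lowest homozygous library had 41.0 CPM and the highest XX WT library 32.6 CPM, so the groups did not overlap. The log2 fold changes were 0.60 ± 0.07, 0.79 ± 0.07 and 0.68 ± 0.12 (edgeR adjusted p = 0.000967, 3.54e-05 and 0.00378). XY WT had 51.1, 52.7 and 47.3 CPM, a log2 fold change of 0.66 ± 0.09 over XX WT (edgeR adjusted p = 0.00672), and this call was kept when any 1 library was left out. The 3bp-del-hom interaction was 0.61 ± 0.11 (edgeR adjusted p = 0.00588).

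Jund (ENSMUSG00000071076.6, chr8:70698949-70700616, plus strand), the most abundant member and a largely constitutive AP-1 subunit, was called higher over XX WT in XX 3bp-del-hom and XX 1bp-ins-hom. It was 302, 308, 321, 263 and 307 CPM in XX 3bp-del-hom, against 189, 189 and 206 CPM in XX WT, with no overlap and a log2 fold change of 0.60 ± 0.07 (edgeR adjusted p = 9.89e-05). In XX 1bp-ins-hom it was 202 to 247 CPM, a log2 fold change of 0.27 ± 0.07 (edgeR adjusted p = 0.0229), which was 0.14 (edgeR adjusted p = 0.169) once the trend with gene length between libraries was removed. Leaving out XX 1bp-ins-hom replicate 2 or 3 or XX WT replicate 1 or 2 also ended that call (edgeR adjusted p up to 0.0907). In XX 3bp-12bp-del-hom the log2 fold change was 0.18 ± 0.08 (edgeR adjusted p = 0.129), and 0.24 ± 0.06, a call, without replicate 1 of that group (edgeR adjusted p = 0.0117), where Jund was 184 CPM and yolk sac transcripts were high. In XY gonads Jund was 258 to 315 CPM in XY 1bp-ins-hom, against 208 to 231 CPM in XY 1bp-ins-het (log2 fold change 0.36 ± 0.08, edgeR adjusted p = 0.0151). With the length trend removed this was 0.26 (edgeR adjusted p = 0.123), and the call was also lost without XY 1bp-ins-het replicate 2 or 3.

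Junb (ENSMUSG00000052837.6, chr8:84974484-84978718, minus strand) is an AP-1 subunit and Egr1 (ENSMUSG00000038418.7, chr18:34859823-34864984, plus strand) a zinc finger factor. Junb averaged 5.82 ± 0.642 CPM in XX 3bp-del-hom (SD, n = 5), against 4.42 ± 0.312 CPM in XX WT (SD, n = 3), an overlapping pair of groups with a log2 fold change of 0.37 ± 0.13 (edgeR adjusted p = 0.0426). With the length trend removed it was 0.23 (edgeR adjusted p = 0.214), and leaving out any 1 XX WT library or XX 3bp-del-hom replicate 1, 2 or 3 ended the call. Egr1 was 12.6, 18.7, 18.6, 14.3 and 15.1 CPM in XX 3bp-12bp-del-hom, against 10.2, 10.1 and 9.98 CPM in XX WT (log2 fold change 0.65 ± 0.13, edgeR adjusted p = 0.00688). It was also called in XX 1bp-ins-hom at 0.43 ± 0.11 (edgeR adjusted p = 0.0181), a call lost without any 1 of the XX WT libraries (edgeR adjusted p = 0.0514 to 0.0641), and not in XX 3bp-del-hom at 0.33 ± 0.13 (edgeR adjusted p = 0.0566), where removing the length trend gave 0.53 (edgeR adjusted p = 0.00715). In XX 3bp-del-hom it was also called without replicate 4 (0.34 ± 0.13, edgeR adjusted p = 0.0468) or replicate 5 (0.42 ± 0.08, edgeR adjusted p = 0.00319).

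Atf3 (ENSMUSG00000026628.13, chr1:191170296-191218039, minus strand), the stress-induced partner, was the 1 member called lower in any of the 15 comparisons between a pair of groups. It averaged 1.84 ± 0.147 CPM in XX 1bp-ins-hom (SD, n = 5), against 2.70 ± 0.238 CPM in XX WT (SD, n = 3), and the groups did not overlap. The log2 fold change was -0.55 ± 0.17 (edgeR adjusted p = 0.0321), and the call was lost without any 1 of the 3 XX WT libraries or without replicate 2 or 3 of XX 1bp-ins-hom (edgeR adjusted p = 0.0541 to 0.128). In the other XX homozygotes the log2 fold changes were -0.29 ± 0.19 and -0.27 ± 0.16, neither of which was called.

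**Figure D2:**
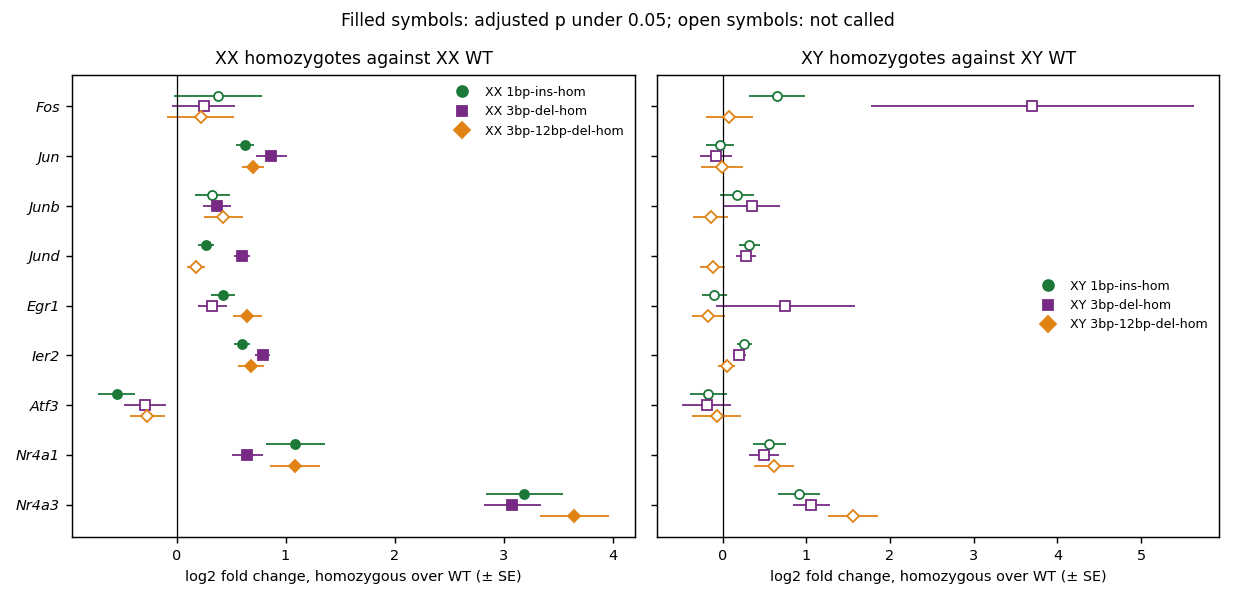
Log2 fold change of the 9 tested members in homozygotes over WT of the same sex (points, with SE as bars), XX on the left and XY on the right. In XX gonads Nr4a3 stands at 3.08 to 3.65, and in XY gonads no symbol is filled, including Fos in XY 3bp-del-hom at 3.70 ± 1.93.

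Fosb had too few counts to be tested in the comparisons of a pair of groups, which left 9 members. In XX 1bp-ins-hom over XX WT 6 of 9 were called higher, where 17.2% of all 16040 genes were, and 1 lower, where 15.1% were (32.3% in either direction). In XX 3bp-del-hom over XX WT 6 of 9 were called higher and 0 lower, where 21.6% of all genes were called higher and 23.1% lower (44.8% in all). In XX 3bp-12bp-del-hom over XX WT 5 of 9 were called higher and 0 lower, where 14.6% and 11.0% of all genes were (25.6% in all).

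Groups did not overlap for 6 members in XX 1bp-ins-hom over XX WT (37.4% of all genes), 5 in XX 3bp-del-hom (44.7%) and 6 in XX 3bp-12bp-del-hom (30.1%). With this background a call for any single gene was common in these 3 comparisons. The median log2 fold change of the tested members was 0.43, 0.60 and 0.65 in that order, beside 0.00, -0.03 and 0.00 over all genes tested.

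Without the 5 libraries that stood apart, the count in XX 1bp-ins-hom over XX WT was 3 of 9 (Jun, Ier2 and Nr4a3), with 23.3% of all genes called. It was 6 of 9 in XX 3bp-del-hom, with 48.3% of all genes called, and 5 of 9 in XX 3bp-12bp-del-hom, with 19.4%. Without all 7 libraries it was 5 of 9 in XX 1bp-ins-hom (Jun, Ier2, Atf3, Nr4a1 and Nr4a3, with 28.8% of all genes called) and 6 of 9 in XX 3bp-12bp-del-hom, Jund included (22.5%). Leaving out 1 library at a time gave 3 to 7, 5 to 7 and 5 to 6 called members in the 3 comparisons, and 3 was reached in XX 1bp-ins-hom without XX WT replicate 1 or 2. Jun, Ier2 and Nr4a3 were called in all 3 comparisons whichever library was left out.

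Against heterozygotes, 7 of 9 members were called in XX 3bp-del-hom over XX 3bp-del-het, all higher, with 14.0% of all genes called higher and 13.1% lower (27.1% in all), and 6 did not overlap (30.2% of all genes). The Egr1 call there was lost without XX 3bp-del-het replicate 1 or 2 or XX 3bp-del-hom replicate 1, 2 or 3 (edgeR adjusted p up to 0.104). In XX 1bp-ins-hom over XX 1bp-ins-het it was 4 of 9 (Jun, Ier2, Nr4a1 and Nr4a3), all higher. Of all genes 8.5% were called higher and 8.76% lower (17.3% in all), and 5 members did not overlap (26.5% of all genes). The Nr4a1 call was lost without any 1 heterozygous library or XX 1bp-ins-hom replicate 2 or 3 (edgeR adjusted p = 0.0613 to 0.126). No member was called in XX 1bp-ins-het or XX 3bp-del-het over XX WT, where edgeR called 0.0% of all genes in XX 1bp-ins-het and 10.9% in XX 3bp-del-het (4.78% higher and 6.15% lower). At an unadjusted p under 0.05 there were 0 and 2 members in those 2 comparisons, and DESeq2 called 0 and 1. The shares of all genes at that threshold and by DESeq2 are not given, so these counts have no background beside them. XY WT over XX WT gave 5 of 9 members (Jun, Egr1, Ier2, Nr4a1 and Nr4a3), all higher, with 5.1% of all genes called higher (11.0% in all), and 6 did not overlap (33.7% of all genes). That count was 7 without the 5 libraries that stood apart, where 43.4% of all genes were called. It was 1 without XX WT replicate 2, 2 without XX WT replicate 1 or 3, and 3 without XY WT replicate 1 or 2.

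In XY gonads no member was called in any of the 5 mutant groups over XY WT. Of all genes edgeR called 0.0% in XY 1bp-ins-hom, XY 3bp-del-hom, XY 1bp-ins-het and XY 3bp-del-het and 0.013% in XY 3bp-12bp-del-hom, so a count of 0 members equals or nearly equals the background. At an unadjusted p under 0.05 there were 4 members in XY 1bp-ins-hom, 3 in XY 3bp-del-hom, 2 in XY 3bp-12bp-del-hom, 2 in XY 1bp-ins-het and 1 in XY 3bp-del-het. DESeq2 called 1 member in each homozygote and 0 in each heterozygote. The edgeR shares above are no background for these counts, as threshold or method differ. XY 1bp-ins-hom over XY 1bp-ins-het gave 2 of 9 (Jun and Jund, both higher) with 12.6% of all genes called, 0 without XY 1bp-ins-het replicate 2 or 3, and 1 without XY 1bp-ins-het replicate 1 or XY 1bp-ins-hom replicate 1 or 4. XY 3bp-del-hom over XY 3bp-del-het gave 0 with 0.0% of all genes called, 3 members at an unadjusted p under 0.05, and 3 by DESeq2. No share of all genes at an unadjusted p or by DESeq2 is given, so such counts are not read as a result about the members.

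Tested for any difference, 8 of 10 members were called among the 6 XX genotypes (53.7% of all genes) and 5 of 10 among the 6 XY genotypes (12.2%). Fos and Fosb were not called among the XX genotypes, at edgeR adjusted p of 0.766 and 0.818. The 5 XY calls were Fos, Fosb, Jund, Ier2 and Nr4a3. The Fos call, at edgeR adjusted p of 0.0376, was lost at 0.123 without XY 3bp-del-hom replicate 1, and without that library Fosb had too few counts to be tested. The calls of Jund and Nr4a3 were kept whichever XY library was left out, while those of Fos and Ier2 were each lost for more than 10 of the 22. The count of 5 became 2 without XY 1bp-ins-hom replicate 1. It became 3 without any 1 library of XY 1bp-ins-het or XY 3bp-12bp-del-hom, or without XY 1bp-ins-hom replicate 2 or 4, XY 3bp-del-het replicate 2 or XY 3bp-del-hom replicate 1. Over the 3 interactions 4 of 28 member terms tested were called, 1 in 1bp-ins-hom, 3 in 3bp-del-hom and 0 in 3bp-12bp-del-hom, where 1.04%, 3.83% and 0.597% of all genes were called. That number was 9 without the 5 libraries that stood apart, 8 without XY WT replicate 3 alone and 2 without XX WT replicate 2. Where it was 9, the shares of all genes called were 7.51%, 29.2% and 15.4%. Without those 5 libraries the other counts were 7 of 9 in XX 3bp-del-hom over XX 3bp-del-het (34.3% of all genes), 8 of 10 among the XX genotypes (51.3%) and 4 of 9 among the XY genotypes (21.3%). They were 0 in XX 1bp-ins-het and XX 3bp-del-het over XX WT (0.00632% and 6.62% of all genes), in each XY mutant over XY WT (0.0% to 0.359%) and in XY 3bp-del-hom over XY 3bp-del-het (0.0%). Without all 7 libraries the interactions gave 10 terms, with 10.3%, 29.2% and 19.1% of all genes called, XX 1bp-ins-hom over XX 1bp-ins-het 4 of 9 (19.8%) and the XX genotypes 8 of 10 (51.7%).

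Fos (ENSMUSG00000021250.13, chr12:85473890-85477273, plus strand, 4 exons) and Fosb (ENSMUSG00000003545.3, chr7:19302696-19310051, minus strand) encode partners of Jun in AP-1, and both stood far higher in a single library. Fos was 45.9 CPM in XY 3bp-del-hom replicate 1 and 0.679, 0.679, 0.794 and 0.736 CPM in replicates 2 to 5, against 0.701, 0.819 and 0.738 CPM in XY WT. Over the other 45 libraries it ran from 0.471 to 2.04 CPM. Fosb was 24.8 CPM in that library and 0.153 to 0.261 CPM in the other four of its group. Egr1 was 83 CPM there, against 8.80 to 13.3 CPM in the other four, and Junb 14.5 CPM, against 5.41 to 6.79 CPM.

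The other 6 members lay closer to their group, with Jun and Atf3 above the other four libraries. In the same library Jun was 112 CPM, with 86.1 to 98.7 CPM in the other four, Ier2 58.2 CPM, with 51.8 to 63.3 CPM, and Nr4a1 36.1 CPM, with 36.2 to 42.1 CPM. Nr4a3 was 5.66 CPM there, with 5.94 to 7 CPM in the other four, and Jund 251 CPM, with 277 to 295 CPM. Atf3 was 2.79 CPM, its highest in the group. The group mean of Fos was 9.76 ± 20.2 CPM in XY 3bp-del-hom (SD, n = 5), against 0.753 ± 0.0607 CPM in XY WT (SD, n = 3). The log2 fold change of 3.70 ± 1.93 was not called (edgeR adjusted p = 0.479).

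**Figure D3:**
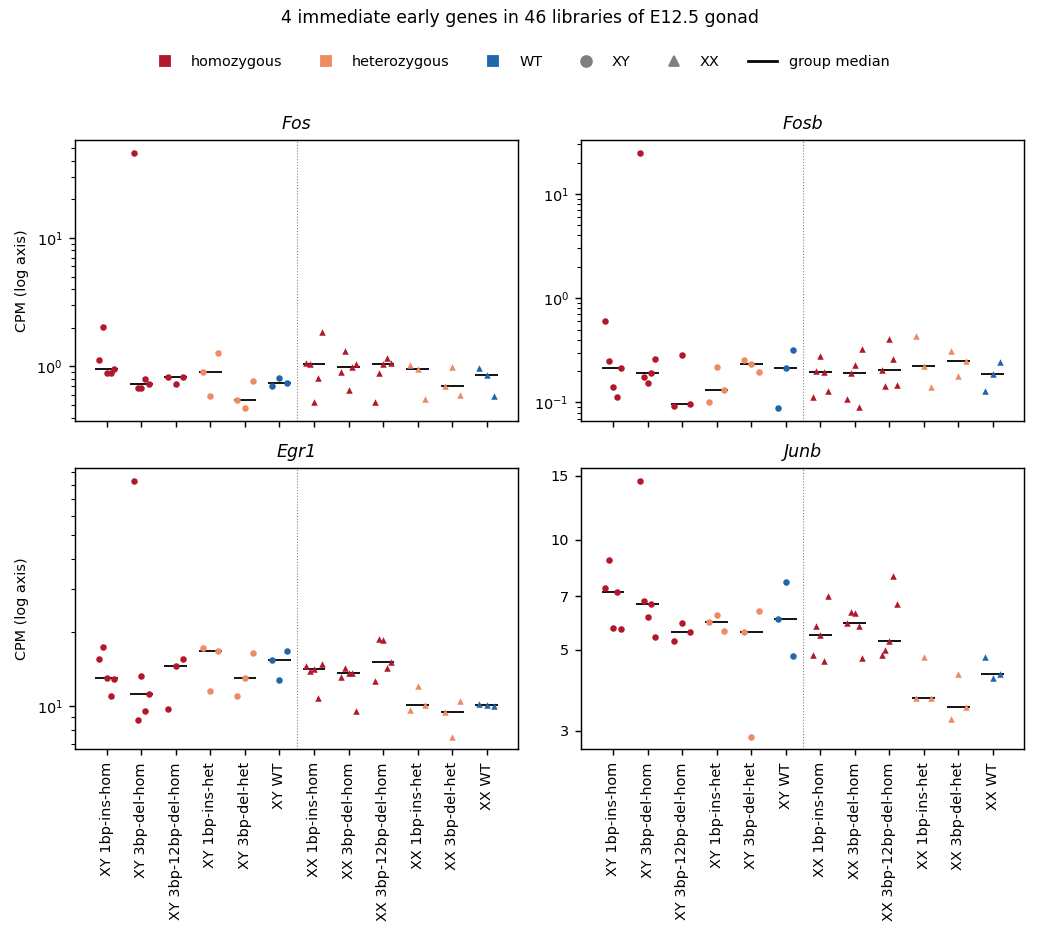
CPM on log axes of Fos, Fosb, Egr1 and Junb by group, with 1 point per library (circles XY, triangles XX) and bars at group medians. One XY 3bp-del-hom library stands at 45.9 CPM for Fos, where the other 45 libraries lie at or below 2.04 CPM.

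Fos, Fosb, Egr1 and Junb were 4 of 10 members at their highest of all 46 libraries in XY 3bp-del-hom replicate 1, where 8.05% of 17033 genes were. That library was picked out by the members' own values, so this count was partly fixed in advance and is no test. Of other immediate early and rapid response genes 5 of 32 were at their highest there. So were 3 of 11 heat shock genes, 2 of 8 stroma markers and 0 of 10 ERK feedback genes. Of the stroma markers 3 of 8 were at least 2-fold above the mean of the rest of the group, as were 6.46% of all genes. Of the ERK feedback genes 8 of 10 were below all the other four libraries of the group, as were 5450 of 17033 genes. The same library had Afp at 2230 CPM, Ttr at 383 CPM, Krt5 at 195 CPM and Gabrp at 535 CPM. Afp and Ttr are secreted by yolk sac endoderm and fetal liver, and Krt5 is a keratin of stratified epithelium. In the other four libraries of the group these 4 genes were at or below 1.54 CPM.

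Fos was not high in every library with yolk sac and liver transcripts. Summed over 10 yolk sac and fetal liver genes, a list put together after these values were seen, the level was 3960 CPM in XY 3bp-del-hom replicate 1 and 1640 CPM in XX 3bp-12bp-del-hom replicate 1. It was 366 CPM in XX 1bp-ins-hom replicate 5, with a median of 5.78 CPM over the 45 libraries other than the first. XX 3bp-12bp-del-hom replicate 1 had Afp at 1140 CPM but Fos at 0.526 CPM, Fosb at 0.205 CPM and Egr1 at 12.6 CPM. These levels of Fos, Fosb and Egr1 lay within the range of the libraries of all groups. For Fos and Egr1, though not Fosb, this library was the lowest of its group, where the others had 0.895 to 1.17 CPM and 14.3 to 18.7 CPM. Its Krt5 was 0.234 CPM and its Gabrp 1.43 CPM, so these epithelial transcripts were low in it. Summed over 10 epithelial genes, a list also put together after the values were seen, the level was 1800 CPM in XY 3bp-del-hom replicate 1, against 101 to 297 CPM in the other 45 libraries and 154 CPM in XX 3bp-12bp-del-hom replicate 1. As this list was chosen with the values of XY 3bp-del-hom replicate 1 known, its peak there was fixed in advance. XX 1bp-ins-hom replicate 5 had Fos at 1.84 CPM, the highest of the 24 XX libraries. Its Krt5 was 2.46 CPM and its Gabrp 5.36 CPM, the highest of the 45 libraries other than XY 3bp-del-hom replicate 1. The part of yolk sac, liver, epithelial or stromal tissue or of handling in the Fos level was not tested.

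**Figure D4:**
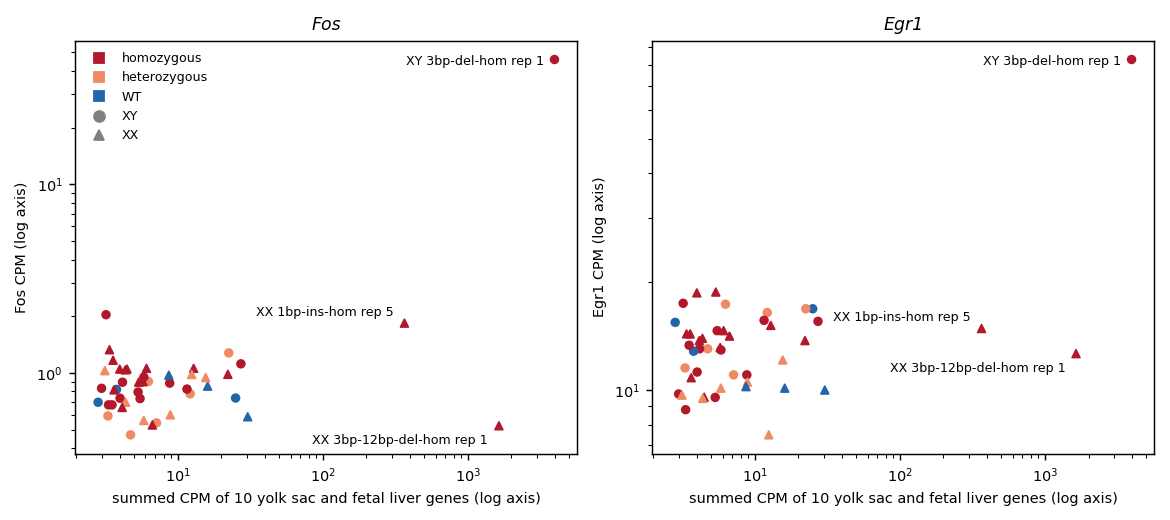
Fos (left) and Egr1 (right) CPM against the summed CPM of 10 yolk sac and fetal liver genes in each of 46 libraries, on log axes. XY 3bp-del-hom replicate 1 is high on both axes, while XX 3bp-12bp-del-hom replicate 1 has 1640 CPM on the horizontal axis and 0.526 CPM of Fos.

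Set against each other, the spread between groups and the spread within them split the 10 members. The SD of the 12 group means of log2 CPM, divided by the pooled SD within groups, was 4.13 for Nr4a3, 2.94 for Nr4a1, 2.01 for Ier2, 1.79 for Jun and 1.38 for Jund. It was 0.954 for Junb, 0.719 for Atf3, 0.503 for Egr1, 0.378 for Fosb and 0.362 for Fos. The first 5 thus varied more between groups than within them. The within-group SD of Fos was 0.987 log2 CPM, at the 95.5th percentile of 997 genes of like level, and 0.404 at the 38.0th percentile without XY 3bp-del-hom replicate 1. For Egr1 it was 0.516 and 0.246, and for Nr4a3 0.412 and 0.418, with and without that library.

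**Figure D5:**
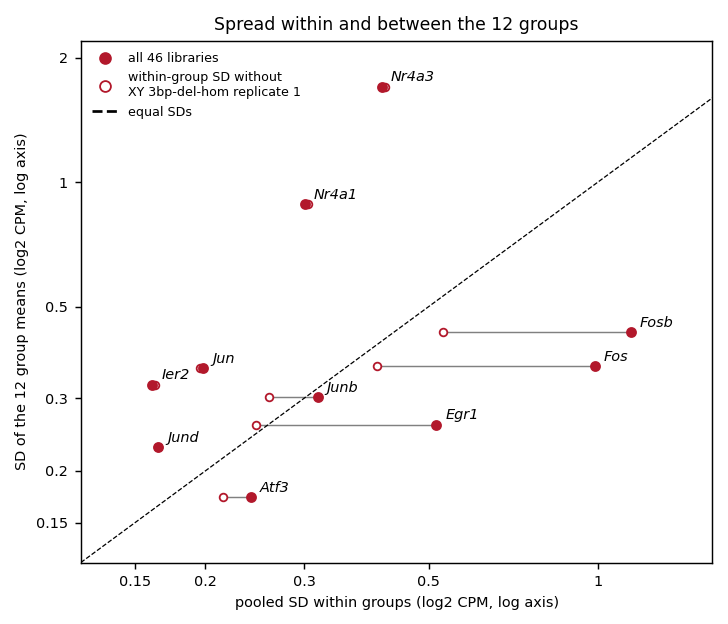
SD of the 12 group means against the pooled SD within groups, both in log2 CPM on log axes, for each member (filled, all 46 libraries; open, within-group SD without XY 3bp-del-hom replicate 1). Nr4a3 at 1.70 against 0.412 lies far above the dashed line of equal SDs, and Fos moves to a within-group SD of 0.404 when the library is left out.

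Within groups the members did not deviate as one block. Of 45 pairs, 3 had a Pearson correlation of deviations with an adjusted permutation p under 0.05: Fos with Junb (r = 0.69, rho = 0.54, permutation p = 9e-05 and 0.00065), Junb with Ier2 (r = 0.60, rho = 0.60, permutation p = 0.0005 and 0.00027) and Jund with Ier2 (r = 0.62, rho = 0.57, permutation p = 0.00097 and 0.00055). Their p-values adjusted over the 45 pairs were 0.00405, 0.0112 and 0.0145 for r and 0.00975 for each rho, and without the 2 farthest libraries r was 0.54, 0.63 and 0.51. The pair Fos and Fosb had r = 0.80 (permutation p = 0.123, adjusted 0.332) but rho = 0.26 (permutation p = 0.16, adjusted 0.365), and r = 0.33 without the 2 farthest libraries, so that relation rests on them. Jund with Atf3 passed by rank (rho = -0.50, permutation p = 0.00293, adjusted 0.033) and not by r (r = -0.51, permutation p = 0.00584, adjusted 0.0562). Nr4a1 and Nr4a3 had r = 0.26 (permutation p = 0.141, adjusted 0.333) and rho = 0.32 (permutation p = 0.0658, adjusted 0.247).

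The genes whose within-group deviations were most like the mean deviation of the 10 members over 46 libraries were Hsd17b7, Tap1, Slc2a1, Esrp2, P4ha2, Ezr, Sfn, AI661453, Gltp and Slc2a3, with Pearson r from 0.81 to 0.87. Without XY 3bp-del-hom replicate 1 their r was 0.44 to 0.62, and 0 of these 10 were among the 10 most like, which Tusc1 (r = 0.74), Maff (0.64) and Jsrp1 (0.64) then led. The first 10 names thus rest on that library. The glucose transporter Slc2a1 was 404 CPM in that library, against 70.1 to 124 CPM in the other 45. The genes most opposed were Lancl1, Pus3, Iftap, Supt4a and Polr1e, with r from -0.66 to -0.60.

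Related lists were read beside the members. The ERK feedback genes, which are induced by the same kinase pathway that reaches many immediate early genes, were called higher over XX WT in 8 of 10 in XX 1bp-ins-hom, 9 of 10 in XX 3bp-del-hom, 8 of 10 in XX 3bp-12bp-del-hom and 9 of 10 in XY WT. The shares of all genes called higher were 17.2%, 21.6%, 14.6% and 5.1% in those 4 comparisons. The median log2 fold changes of the ERK feedback genes were 0.75, 0.64, 0.89 and 1.03, beside 0.00, -0.03, 0.00 and 0.00 over all genes tested. The Ets factor gene Etv4 rose by a log2 fold change of 1.83 ± 0.28, 1.96 ± 0.16 and 1.92 ± 0.18 in the XX homozygotes, and the pathway inhibitor Spry4 by 1.26 ± 0.15, 1.19 ± 0.09 and 1.6 ± 0.10. In the interactions 3 of the 10 were called higher for 1bp-ins-hom, 8 for 3bp-del-hom and 4 for 3bp-12bp-del-hom.

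Of 31 other immediate early and rapid response genes tested, 9, 13 and 7 were called higher in the XX homozygotes over XX WT, and 0, 1 and 1 lower, with median log2 fold changes of 0.08, 0.27 and 0.13, where 17.2%, 21.6% and 14.6% of all genes were called higher. The small GTPase gene Gem rose by 2.08 ± 0.52, 1.18 ± 0.15 and 1.52 ± 0.14, and the matricellular gene Ccn2 by 1.41 ± 0.25, 0.94 ± 0.10 and 1.15 ± 0.12. Of 12 other AP-1 and basic leucine zipper partners, 2 were called higher in each, Maff and Mafk, a share close to that of all genes, with Maff at 1.19 ± 0.15, 1.08 ± 0.14 and 1.41 ± 0.13. Called lower were Ddit3 in XX 3bp-del-hom (-0.58 ± 0.19, edgeR adjusted p = 0.0271) and Crem in XX 3bp-12bp-del-hom (-0.31 ± 0.10, edgeR adjusted p = 0.0444).

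Heat shock genes, a common mark of stress during tissue handling, were higher in the XX homozygotes and, for fewer genes, in XX 3bp-del-het. Of 11 tested, 7, 9 and 7 were called higher over XX WT and 1, 1 and 0 lower, with median log2 fold changes of 0.39, 0.48 and 0.28, while 0 were higher and 1 lower in XY WT over XX WT. Of all genes 17.2%, 21.6% and 14.6% were called higher in the 3 XX homozygotes. In XX 3bp-del-het over XX WT 4 of 11 were called higher and 0 lower, with a median of 0.27, where 4.78% of all genes were called higher, and in XX 1bp-ins-het 0 of 11 were called, with a median of 0.20. Hspb1 rose by 0.52 ± 0.08 and Hspd1 by 0.43 ± 0.04 in XX 3bp-del-het. The chaperone gene Hsph1 rose by 0.58 ± 0.13 in XX 3bp-del-hom and 0.62 ± 0.09 in XX 3bp-12bp-del-hom. Over the heterozygotes, 2 of 11 were called higher in XX 1bp-ins-hom and 1 of 11 in XX 3bp-del-hom, and 1 lower in each. The 11 genes summed to 5810 to 8260 CPM over the 3 homozygous XX groups and 5320 to 6620 CPM over the 2 heterozygous XX groups, against 4620 to 5160 CPM in XX WT, and their part in the rise of Jun, Ier2, Nr4a1 and Nr4a3 was not tested.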

How the data were processed

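RNA was poly(A)-selected, per the labels' protocols, and read against mm10, as the submitters' processing notes list. Not given in the sources used here were aligner, quantifier and strand handling. The authors deposited estimated counts per gene (8 to 8.9% per library not whole, rounded here) and TPM. Of each file's columns, 1 matched no sample and was not used.

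Each comparison was fitted on its own groups with edgeR 4.0.16 in R 4.3.3 (quasi-likelihood F test, robust, TMM, filterByExpr), with Benjamini-Hochberg adjustment over all genes tested and calls at an adjusted p under 0.05. The SE is the log2 fold change over the root of F. CPM is TMM-scaled over 46 libraries, and log2 CPM has a prior count of 2. Correlations used 100000 permutations within groups. The length trend is a lowess fit per library. The fit was tested on simulated data, and DESeq2 1.42.0 was an alternative. Over 71 pairs of libraries of a group none agreed within sampling noise (lowest chi-square per degree of freedom 13.28).

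Coordinates are GENCODE M21. All 10 members are named, with up to 3 called genes of largest change per other list and comparison, and the 10 genes most like and 5 least like the members. Members and lists were chosen with earlier results of these data known.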

Additional observations from a re-analysis of the deposited data

Results flagged for a closer look

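In groups of 5, single libraries lay farther from the rest than Dixon's 95% limit for 11 of 50 combinations of member and group, where chance gives about 1 in 20. XY 3bp-del-hom replicate 1 was high for Fos at 45.9 CPM, Fosb at 24.8 CPM, Egr1 at 83 CPM and Junb at 14.5 CPM. Over all 17033 genes, 4.84% were marked high in that library, a share given as a description only, as the members' own values singled it out. A library past the limit was found for 9.2% of all genes in XY 3bp-del-hom, where 4 members had one, and 7.44% in XX 3bp-del-hom (3 members). It was found for 7.12% in XX 1bp-ins-hom (2 members), 5.51% in XX 3bp-12bp-del-hom (1 member) and 5.2% in XY 1bp-ins-hom (1 member). XY 1bp-ins-hom replicate 2 was high for Fos at 2.04 CPM. XX 3bp-del-hom replicate 4 was high for Jun at 137 CPM, replicate 1 of that group was high for Ier2 at 62.4 CPM, and replicate 5 low for Egr1 at 9.53 CPM. XX 1bp-ins-hom replicate 1 was low for Jund at 202 CPM and replicate 4 low for Egr1 at 10.8 CPM. XX 3bp-12bp-del-hom replicate 1 was low for Jund at 184 CPM.

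The XX and XY effects of homozygosity differed for 4 terms tested as interactions by edgeR. Nr4a3 differed by 2.28 on the log2 scale in 1bp-ins-hom and 2.03 in 3bp-del-hom, Jun by 0.96 and Ier2 by 0.61 in 3bp-del-hom.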

How the results depend on the processing

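RLE normalization moved no count of called members by over 1.5 times. DESeq2 gave 1 member for XX 3bp-del-het over XX WT, 1 each for the 3 XY homozygotes over XY WT and 3 for XY 3bp-del-hom over XY 3bp-del-het. One fit over all 12 groups gave 1, 3 and 1 for XY 1bp-ins-hom, XY 3bp-del-hom and XY 3bp-12bp-del-hom over XY WT. It gave 0 for XY 1bp-ins-hom over its heterozygote and 4 for XY 3bp-del-hom over its heterozygote. The shares of all genes called by DESeq2 and by this fit are not given, so these counts have no background beside them. With the length trend removed, XY 1bp-ins-hom over XY 1bp-ins-het gave 0 and any difference among XY genotypes 3, and without the low-count filter that last count was also 3. Without the 5 libraries that stood apart (chosen after seeing the data), XX 1bp-ins-hom over XX WT gave 3 and the interactions 9, and without all 7 with markers of other tissue the interactions gave 10. On log2(TPM + 1) the within-group SD was 0.531 for Fosb and 0.183 for Nr4a3, and 6 pairs of members correlated. The Egr1 interaction for 3bp-del-hom was -0.41 and not called, ran from -0.63 to 0.83 with 1 library left out, and was 0.83 (edgeR adjusted p = 0.0467) without XY 3bp-del-hom replicate 1 and 0.74 (edgeR adjusted p = 0.037) without the 5 or the 7 libraries. The cause was not tested. Leaving out 1 library at a time gave 2 to 8 interaction terms, 1 to 7 members for XY WT over XX WT, 3 to 7 for XX 1bp-ins-hom, 5 to 7 for XX 3bp-del-hom and 5 to 6 for XX 3bp-12bp-del-hom over XX WT, and 3 to 5 and 6 to 7 for XX 1bp-ins-hom and 3bp-del-hom over heterozygotes. It gave 0 to 3 and 0 to 1 for the same 2 in XY, 0 to 0 for each XY mutant and each XX heterozygote over WT, 8 to 8 for any difference among XX genotypes and 2 to 6 among XY genotypes. With the replicate block, XY WT over XX WT gave 2 and any difference among XY genotypes 1. In 0 of 15 comparisons did every same-number pair correlate over 0.1, and in XX 3bp-del-hom over XX WT all 3 numbers correlated best with their own (0.08 to 0.35), so the pairing is a hint only. Depth limits Fosb, which passed the filter in 3 tests.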
